A study of Mus musculus with 6 samples.

Results

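The HoxC cluster is one of the 4 Hox clusters of the mouse and holds 9 protein-coding Hox genes, Hoxc4, Hoxc5, Hoxc6, Hoxc8, Hoxc9, Hoxc10, Hoxc11, Hoxc12 and Hoxc13, together with the long non-coding RNA Hotair. These 10 genes were taken by symbol from a count table of 54134 genes, and they span 115.75 kb of chromosome 15, from 102921103 to 103036852 on GRCm38. RNA-seq was performed on tailbuds of E10.5 C57BL/6 embryos, dissected as the tissue caudal to the last somite, with 1 library per embryo. The stage is that of the labels, and a heading in the study's source data gives an earlier one. The 4 wildtype libraries came from embryos with wildtype as their labelled genotype. The 2 Cdx2P:Nr6a1 libraries came from transient transgenic embryos, in which the Cdx2P promoter drives the coding sequence of the long isoform of Nr6a1. Each transgenic embryo is therefore a separate integration event, and no other allele or agent differed by label. Nr6a1 encodes an orphan nuclear receptor, and the comparison asks how HoxC expression differed when its activity was raised in the tailbud.

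Hox genes encode homeodomain transcription factors that give cells along the head-to-tail axis their regional identity. Within a cluster they are activated in the order of their position, from the 3′ end (Hoxc4) to the 5′ end (Hoxc13), so that anterior genes come on first and posterior genes last. In the tailbud, which holds the progenitors of the spinal cord and the vertebrae, the set of active Hox genes changes as the axis lengthens from neck to trunk to tail. Hotair is transcribed from the opposite strand between Hoxc12 and Hoxc11 and is best known from work on human cells, where it was described as a regulator of genes outside the cluster.

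All homeodomains are built alike, and the homeoboxes of the 3 genes called between the genotypes are shown. Each has 180 bases and lies on the plus strand of GRCm38, at chr15:102992571-102992750 for Hoxc8, chr15:102970848-102971027 for Hoxc10 and chr15:102927210-102927389 for Hoxc13. Capitals mark the bases that differ from Hoxc8.
Hoxc8: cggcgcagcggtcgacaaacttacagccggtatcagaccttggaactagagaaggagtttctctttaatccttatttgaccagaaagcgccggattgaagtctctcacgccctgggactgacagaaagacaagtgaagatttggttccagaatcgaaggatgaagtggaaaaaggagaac
Hoxc10: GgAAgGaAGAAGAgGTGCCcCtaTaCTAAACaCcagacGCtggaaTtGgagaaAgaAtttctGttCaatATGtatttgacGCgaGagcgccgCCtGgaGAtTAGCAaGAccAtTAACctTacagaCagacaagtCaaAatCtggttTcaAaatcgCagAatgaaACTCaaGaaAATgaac
Hoxc13: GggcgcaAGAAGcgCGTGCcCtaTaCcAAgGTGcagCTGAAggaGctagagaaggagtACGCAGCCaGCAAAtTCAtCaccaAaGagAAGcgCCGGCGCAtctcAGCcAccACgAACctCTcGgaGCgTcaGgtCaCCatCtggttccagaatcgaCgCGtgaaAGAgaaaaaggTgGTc
The homeobox of Hoxc10 differed from that of Hoxc8 at 72 of the 180 bases and that of Hoxc13 at 84, which left 53.3% identity for the latter. Between neighbours in the cluster the identity was 77.8% for Hoxc6 and Hoxc5, the highest of all pairs, and 71.7% for Hoxc10 and Hoxc9. The lowest value was 48.3%, between Hoxc13 and Hoxc5. Reads had 75 bases, and no stretch of 75 bases in the annotated transcripts of Hoxc13, Hoxc12, Hoxc11, Hoxc8, Hoxc6 or Hoxc4 was found in a transcript of another gene. Hoxc10 and Hoxc5 shared 94 such stretches, 5.12% of those of Hoxc10, because an annotated first exon of Hoxc5 lies on the same strand within an exon of Hoxc10. Hotair shared 1.24% of its stretches with Gm27443 and Hoxc9 shared 0.297% with Gm29455. By sequence alone, reads from these stretches cannot be assigned to one gene. Hotair and Gm27443 lie on opposite strands, where counting that uses strand could separate them.

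A microRNA gene, Mir196a-2, lies between Hoxc10 and Hoxc9, and its mature product miR-196a-5p is known for repressing Hox8 transcripts. The mature sequence (chr15:102973365-102973386, plus strand) is shown with its seed, bases 2 to 8, in capitals. The seed is the same in miR-196b-5p, whose gene lies in the HoxA cluster (chr6:52230129-52230150, minus strand).
miR-196a-5p: uAGGUAGUuucauguuguuggg
miR-196b-5p: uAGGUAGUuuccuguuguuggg
The match to this seed, ACTACCT, was searched on the transcript strand after the stop codon of the longest coding transcript of each gene. Hoxc8 was the 1 of 9 coding members that held it, with 2 matches, shown in capitals within their surroundings (chr15:102992979-102993007 and chr15:102993736-102993764, plus strand).
Hoxc8, first match: tcacaactctaACTACCTgtcagatagtt
Hoxc8, second match: atctttaacatACTACCTaaagggaacct
Of 20583 coding genes, 5.52% held the same 7 letters after the stop codon. Mature microRNAs were not measured, and the host row Mir196a-2 had 1 to 6 counts per library.

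Library totals lay between 44073460 and 67183802 counts, and CPM, the count of a gene scaled to these totals, allows the libraries to be compared. Nr6a1 itself had 3.91, 5.18, 5.53 and 6.89 CPM in wildtype and 23.4 and 33.8 CPM in Cdx2P:Nr6a1 libraries, and its log2 fold change was 2.41 (SE 0.20, adjusted p = 0.00132, edgeR's quasi-likelihood test). The counts do not separate transgene from endogenous transcripts. Y-linked genes were expressed in wildtype replicate 3 and Cdx2P:Nr6a1 replicate 2 and were near 0 in the others, so each genotype held embryos of both kinds. Genes were tested when 2 or more libraries exceeded 10 counts and 2 CPM. This applied to 12733 genes and to all 10 members, whose lowest value in any library was 21.7 CPM.

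In wildtype tailbuds the most abundant member per transcript length was Hoxc10, at 468 ± 12.8 TPM (SD, n = 4), a unit that also divides by the exon length of the gene. Hoxc13 followed at 362 ± 20.1 TPM and Hoxc12 at 348 ± 18.7 TPM, and their ranges overlapped, with Hoxc13 above Hoxc12 in 2 of 4 libraries. Thus 3 of the 5′ genes, which are active late and at posterior levels, stood at the top of the order.

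Hoxc11, at 180 ± 7.18 TPM, and Hoxc6, at 158 ± 18.5 TPM, had overlapping ranges, although Hoxc11 was the higher in all 4 libraries. Hoxc4 stood apart from both neighbours in the order, at 99.4 ± 7.91 TPM. The remaining genes were close together, with Hoxc9 at 58.8 ± 6.64, Hoxc8 at 54.8 ± 6.68, Hotair at 52.4 ± 8.54 and Hoxc5 at 48.4 ± 3.08 TPM. Each of these 4 overlapped the next in range. The order of levels therefore did not follow the order along the cluster.

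The spread between wildtype embryos also differed between members. The coefficient of variation of CPM was 1.15% for Hoxc10 and 1.90% for Hoxc11, the most even members. It was 13.8% for Hotair, the most variable, and 9.10% to 9.70% for Hoxc9, Hoxc8 and Hoxc6.

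Hoxc13 fell in Cdx2P:Nr6a1 tailbuds, Hoxc8 and Hoxc10 rose, and the other 7 members were not called. Along the cluster the fold changes ran from below 0 at the 5′ end (Hoxc13, Hoxc12, Hotair) through about 0 at Hoxc11 to above 0 for the 6 genes from Hoxc10 to Hoxc4. Of the 12733 genes tested, 0.785% were called higher and 0.809% lower, compared with 2 and 1 of the 10 members. For 5 members the transgenic libraries both exceeded every wildtype library (10.1% of all genes tested), for 2 they both lay below (8.48%), and for 3 the groups overlapped. The median log2 fold change was 0.24 over the members and -0.00071 over all genes tested. Fewer cells of a type and less RNA per cell cannot be told apart in such bulk libraries.

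**Figure D1:**
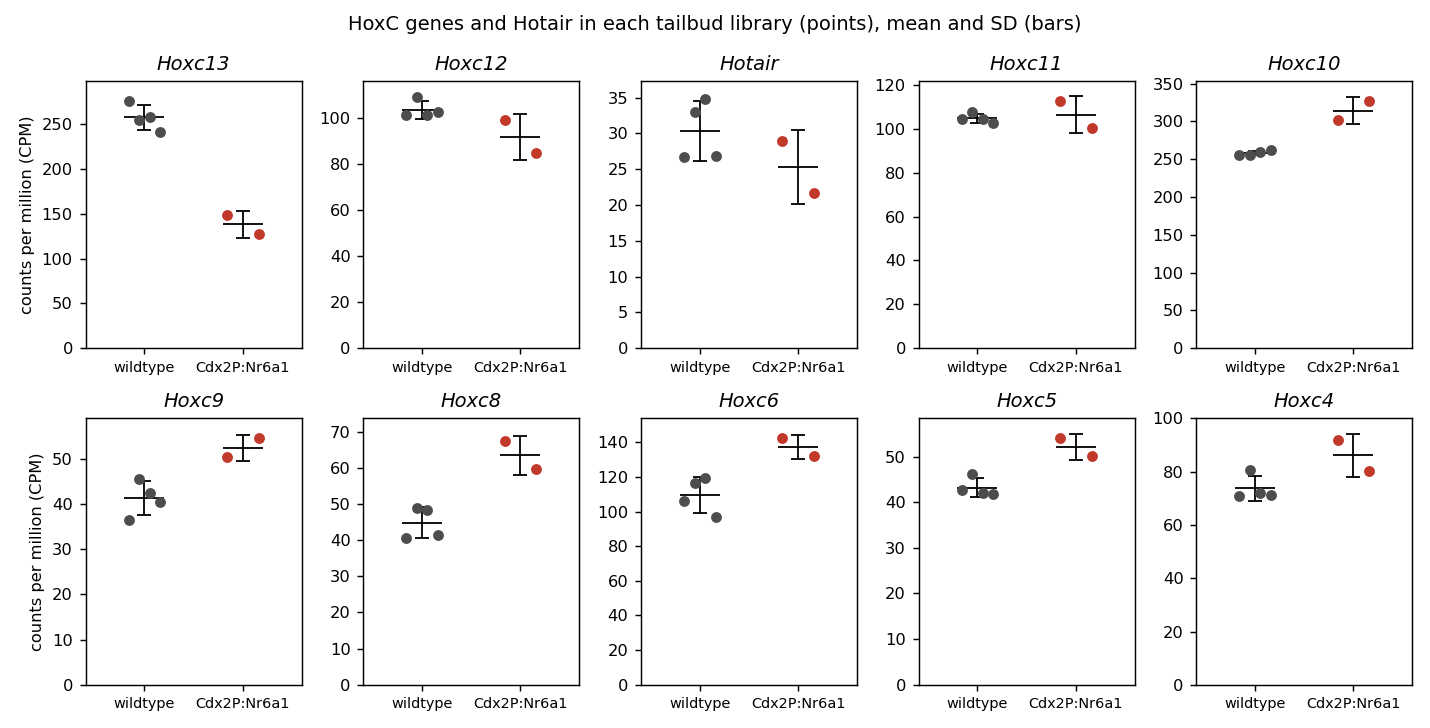
CPM of each member (y axis, from 0, scales differ between panels) in the 4 wildtype (grey) and 2 Cdx2P:Nr6a1 (red) libraries, 1 point per embryo, with the mean and SD as black bars. Both red points lie below all grey points for Hoxc13 and Hoxc12 and above them for Hoxc10, Hoxc9, Hoxc8, Hoxc6 and Hoxc5.

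At the 5′ end, Hoxc13, known for its part in hair and nail differentiation and as the last gene of the cluster to be activated, had 276, 254, 258 and 241 CPM in wildtype replicates 1 to 4. It had 149 and 128 CPM in Cdx2P:Nr6a1 replicates 1 and 2. Both transgenic embryos stood far below the lowest wildtype embryo, and the wildtype values were close together. The fold change was 0.533 (log2 -0.91, SE 0.07, 95% interval -1.07 to -0.74, adjusted p = 0.00131, edgeR's quasi-likelihood test). Hoxc13 remained called in each of the 15 alternative tests, the replicate block being counted apart, with a log2 fold change from -1.01 to -0.81 and an adjusted p of at most 0.0231 (edgeR, limma or DESeq2).

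Hoxc12 lies next to Hoxc13 and is likewise a 5′ gene of the axial series. Its CPM was 101, 109, 101 and 102 in wildtype and 99.0 and 84.9 in Cdx2P:Nr6a1 libraries. Both transgenic libraries lay below all wildtype libraries, but replicate 1 only just. The log2 fold change was -0.18 (SE 0.07, 95% interval -0.33 to -0.03, adjusted p = 0.327, edgeR), and none of the 15 alternatives called it.

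The level of Hoxc13 relative to its neighbour Hoxc12 therefore also differed. The log2 ratio of their TPM was 0.20, -0.03, 0.09 and -0.02 in wildtype and -0.67 in both Cdx2P:Nr6a1 libraries. In wildtype the genes were near parity, and in both transgenic embryos Hoxc13 was the lower.

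Hotair had 26.7, 33.0, 34.8 and 26.9 CPM in wildtype and 29.0 and 21.7 CPM in Cdx2P:Nr6a1 libraries. One transgenic embryo lay inside the wildtype range and the other below it. The log2 fold change was -0.27 (SE 0.14, 95% interval -0.58 to 0.05, adjusted p = 0.588, edgeR), so a difference of the size seen for Hoxc13 lay outside the interval, while a moderate decrease or none lay within it. Its TPM relative to Hoxc12 ranged from 0.135 to 0.176 in wildtype and was 0.151 and 0.131 in the transgenic embryos, which overlapped. Relative to Hoxc11 it ranged from 0.258 to 0.336, against 0.259 and 0.218. Hotair, on the minus strand from 102944062 to 102947730, shares 167 of its 2006 exon bases with Gm27337 and Gm27443 on the plus strand, and both of these had 0 counts in every library.

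Hoxc11, which with its Hox11 paralogues patterns the sacral region, had 104, 108, 105 and 103 CPM in wildtype. It had 113 and 100.5 CPM in the transgenic libraries, 1 above and 1 below all wildtype values. The log2 fold change was 0.02 (SE 0.05, 95% interval -0.11 to 0.14, adjusted p = 0.967, edgeR), and its sign turned without Cdx2P:Nr6a1 replicate 1 (-0.06).

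**Figure D2:**
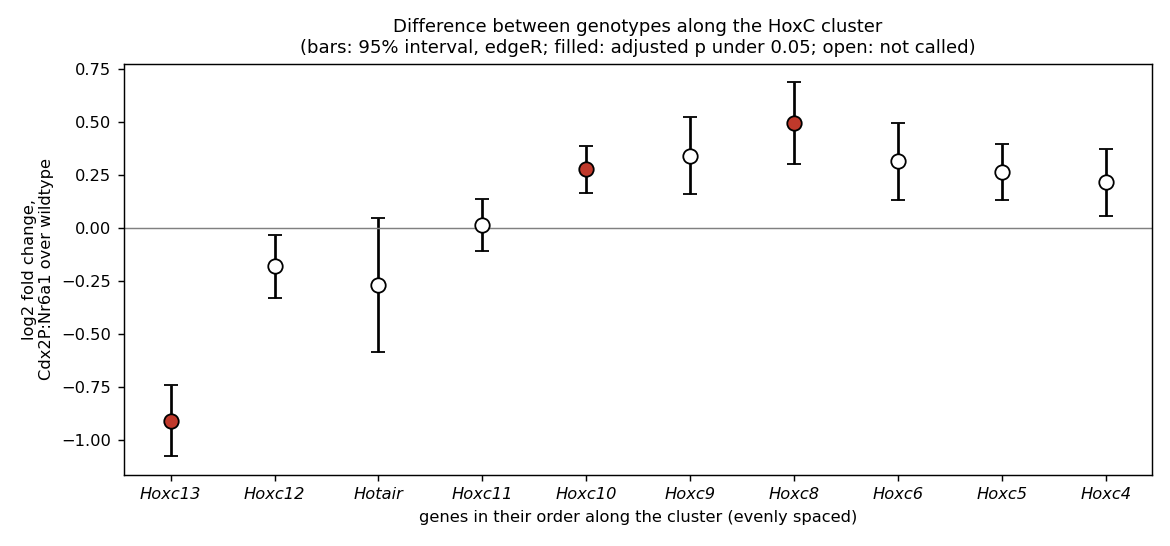
Log2 fold change, Cdx2P:Nr6a1 over wildtype, of the 10 members in their order along the cluster (x axis, evenly spaced), with 95% intervals from edgeR. Filled points (Hoxc13, Hoxc10 and Hoxc8) had an adjusted p under 0.05, and values pass from -0.91 at Hoxc13 through 0.02 at Hoxc11 to 0.49 at Hoxc8.

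Hoxc10 belongs to the Hox10 group, which specifies rib-free lumbar vertebrae, and it is the most abundant member. It had 256, 256, 260.1 and 262 CPM in wildtype and 301 and 327 CPM in Cdx2P:Nr6a1 libraries. The wildtype values were almost the same, and both transgenic values lay above them. Its log2 fold change was 0.28 (SE 0.05, 95% interval 0.17 to 0.39, adjusted p = 0.0272, edgeR). The call was lost without wildtype replicate 1 (adjusted p = 0.0526, edgeR), 2 (0.0846) or 4 (0.0810) and with Y-linked expression as a covariate (0.0524). In these fits the log2 fold change stayed between 0.26 and 0.28. The call was also lost without Cdx2P:Nr6a1 replicate 2, where the log2 fold change was 0.21.

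Hoxc9 belongs to the Hox9 group of the thoracic region, where it sets motor neuron columns. It had 36.6, 45.5, 42.5 and 40.5 CPM in wildtype and 50.4 and 54.5 CPM in the transgenic libraries. Both transgenic values exceeded the highest wildtype value. The log2 fold change was 0.34 (SE 0.08, 95% interval 0.16 to 0.52), with an adjusted p of 0.0836 from edgeR's quasi-likelihood test, so Hoxc9 was not called, and 3 of these 15 alternatives called it (edgeR's likelihood ratio test, DESeq2 and no filter on low counts).

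Hoxc8, a gene of the thoracic vertebrae and of brachial motor neurons, had the largest upward fold change of the 10 members. Its CPM was 40.6, 48.9, 48.2 and 41.5 in wildtype and 67.3 and 59.5 in the Cdx2P:Nr6a1 libraries. The groups were well separated, with transgenic replicate 1 the highest. The fold change was 1.41 (log2 0.49, SE 0.09, 95% interval 0.30 to 0.69, adjusted p = 0.0266, edgeR). The call was lost without wildtype replicate 4 (log2 0.45, adjusted p = 0.0618, edgeR). It was also lost without Cdx2P:Nr6a1 replicate 1 (log2 0.41) or 2 (log2 0.58). Hoxc8 is also the member with the seed matches shown above, a property of the sequence whose part in this difference was not tested.

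Hoxc6 is a thoracic gene whose group is associated with rib-bearing vertebrae. It had 106, 117, 119.6 and 96.8 CPM in wildtype and 142 and 132 CPM in Cdx2P:Nr6a1 libraries. The transgenic values lay above a rather wide wildtype range. The log2 fold change of 0.32 (SE 0.08, 95% interval 0.13 to 0.50) did not pass (adjusted p = 0.116, edgeR), and the 3 of the 15 alternatives that called Hoxc9 also called it. The replicate block called both genes, with an adjusted p of 0.0208 for Hoxc9 and 0.0374 for Hoxc6 (edgeR).

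Hoxc5 and Hoxc4, the 3′ genes, act first in the neck region. Hoxc5 had 42.6, 46.2, 42.1 and 41.9 CPM in wildtype and 54.2 and 50.04 CPM in transgenic libraries. Its groups did not overlap, and its log2 fold change was 0.26 (SE 0.06, adjusted p = 0.0711, edgeR).

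Hoxc4 had 71.0, 80.5, 72.1 and 71.2 CPM in wildtype and 91.8 and 80.3 CPM in transgenic libraries, which overlapped through wildtype replicate 2. Its log2 fold change was 0.22 (SE 0.07, adjusted p = 0.233, edgeR). Neither gene was called. Of the 15 alternatives, 1 called Hoxc4, without a filter on low counts, and 3 called Hoxc5, the likelihood ratio test, DESeq2 and no filter. The replicate block called neither gene (adjusted p = 0.228 for Hoxc5 and 0.443 for Hoxc4, edgeR).

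The single-gene exact permutation test cannot go below p = 0.0667 with 2 libraries against 4, and the 7 members without overlap each had this two-sided value. Hotair had 0.267, Hoxc11 0.733 and Hoxc4 0.133 by the same exact test.

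Summed over the 10 genes, HoxC transcripts amounted to 1829 ± 89.3 TPM (SD, n = 4) in wildtype and 1820 ± 72.2 TPM (SD, n = 2) in Cdx2P:Nr6a1 tailbuds. The transgenic sums of 1871 and 1769 TPM lay inside the wildtype range of 1737 to 1916 TPM, whereas the make-up of the sum differed. Hoxc13 made up 21.4, 19.0, 19.6 and 19.2% of it in wildtype and 11.1 and 10.1% in transgenic libraries, a mean difference of -9.17 percentage points (Cdx2P:Nr6a1 minus wildtype). Hoxc10 made up 24.6% to 26.8% in wildtype and 29.2% and 33.5% in transgenic libraries. Both shares lay outside the wildtype range in both embryos, in opposite directions.

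The share of Hoxc6 was 7.86% to 9.29% in wildtype and 10.9% and 10.7% in the transgenic libraries, and that of Hoxc8 was 2.74% to 3.19% against 4.39% and 4.11%. For all 6 genes from Hoxc10 to Hoxc4 the shares of both transgenic libraries were above those of all wildtype libraries. Since shares add to a whole, a lower share of one gene raises the others, and the shares carry no test of their own. The TPM of Hoxc13 was 6.67 ± 0.83 times that of Hoxc8 in wildtype (SD, n = 4) and 2.54 and 2.47 times in the 2 transgenic embryos. Relative to Hoxc10, it was 0.716 to 0.837 in wildtype and 0.382 and 0.302 in the transgenic embryos.

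**Figure D3:**
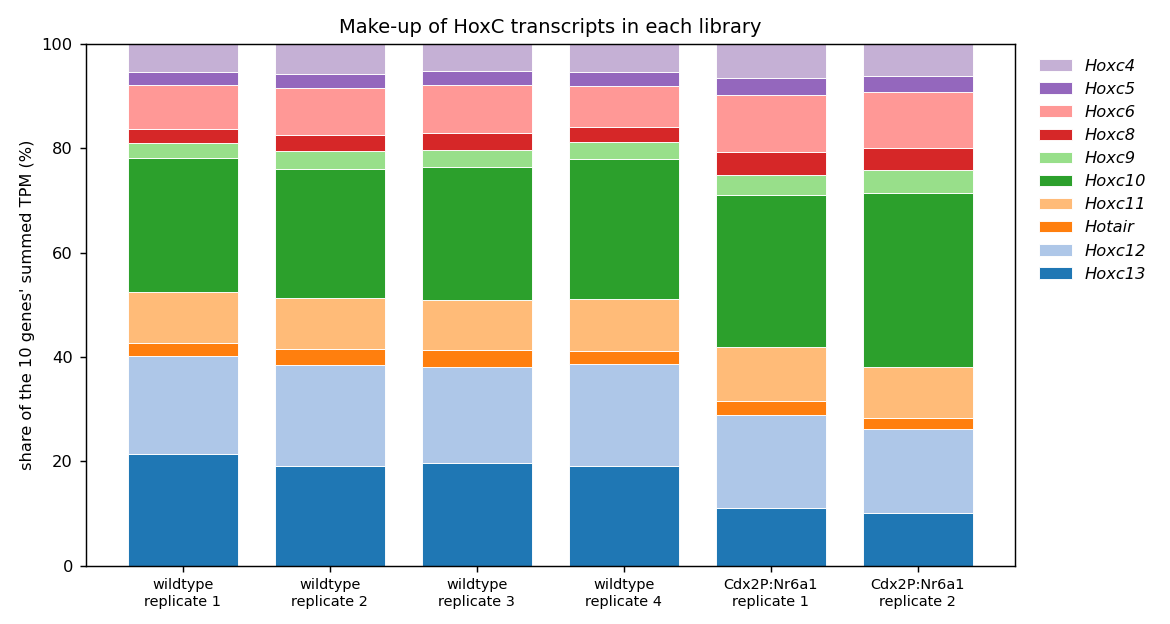
Share of each member in the summed TPM of the 10 genes (y axis, %), stacked from Hoxc13 at the bottom to Hoxc4 at the top, in each of the 6 libraries. The Hoxc13 block shrinks from 19.0% or more in wildtype to 11.1% and 10.1% in the Cdx2P:Nr6a1 libraries, and the Hoxc10 block grows to 29.2% and 33.5%.

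Within each library, the ratio of neighbours along the cluster separated the genotypes at 3 of 9 steps, a count to be read against 21.7% of the ratios between tested genes next to each other on a chromosome. Beside Hoxc13 to Hoxc12, these were Hoxc11 to Hoxc10, whose log2 ratio of TPM was -1.43 to -1.33 in wildtype and -1.50 and -1.79 in transgenic libraries, and Hoxc8 to Hoxc6, at -1.62 to -1.46 against -1.31 and -1.38. At the other 6 steps the groups overlapped, among them all steps from Hoxc6 to Hoxc4. For example, the log2 ratio of Hoxc5 to Hoxc4 was -1.066 to -1.005 in wildtype and -1.028 and -0.949 in transgenic embryos.

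The transgenic embryos also differed from each other. Replicate 1 had the higher value for Hoxc8, Hoxc6, Hoxc5 and Hoxc4 and for the 5′ members Hoxc13, Hoxc12, Hotair and Hoxc11. Replicate 2, with the higher Nr6a1 level, had the higher value for Hoxc10 and Hoxc9 alone. With 1 embryo at each level, no relation to the Nr6a1 level can be tested.

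Each HoxC gene has paralogues with the same number in the HoxA, HoxB or HoxD cluster, which arose with it from one ancestral gene. The log2 ratio of a HoxC gene to each paralogue was taken in each library over 20 pairs, on the TPM scale. In 14 pairs the genotypes did not overlap, with the HoxC gene relatively higher in 12 and lower in 2. Over every pair of tested genes, 21.5% of the ratios did not overlap between the genotypes, and the 20 pairs share members, so they are not independent. In 12 of the 20 pairs the exact permutation test gave 0.0667, the smallest p it allows, and no pair could pass after Benjamini-Hochberg adjustment over the 20 pairs (lowest adjusted p = 0.111, exact permutation).

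Among the Hox13 genes, the log2 ratio of Hoxc13 to Hoxb13 was 0.27 to 0.54 in wildtype and 1.09 and 0.98 in transgenic embryos, since Hoxb13 fell further (log2 fold change -1.54, edgeR). The ratio of Hoxc13 to Hoxa13 was 1.79 to 1.94 against 1.56 and 1.67, so Hoxc13 was the lower relative to Hoxa13. Its ratio to Hoxd13 overlapped between the genotypes.

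Hoxc12 was higher relative to Hoxd12, its sole paralogue, in both transgenic embryos (log2 ratio 0.46 and 0.67) than in wildtype (0.12 to 0.18). Hoxc11 differed most from a paralogue, with a log2 ratio to Hoxa11 of 1.74 to 1.93 in wildtype and 0.92 and 0.54 in transgenic embryos. Hoxa11 was called higher, whereas Hoxc11 and Hoxd11 were not called, and the ratio of Hoxc11 to Hoxd11 overlapped.

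Hoxc8 was higher relative to both Hoxb8 and Hoxd8 in the transgenic embryos. Its log2 ratio to Hoxb8 was -0.13 to 0.11 in wildtype and 0.59 and 0.26 in transgenic libraries, and that to Hoxd8 was -0.96 to -0.65 against -0.29 and -0.51. Neither paralogue was called (adjusted p = 0.80 and 0.76, edgeR).

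The log2 ratio of Hoxc9 to Hoxa9 was -1.03 to -0.84 in wildtype and -1.04 and -0.82 in transgenic embryos. These groups overlapped, although Hoxa9 was called higher and Hoxc9 was not. Relative to Hoxb9 it was higher, at -2.99 to -2.52 in wildtype and -2.23 and -1.95 in transgenic embryos. Hoxc6 was higher relative to Hoxa6 and Hoxb6 and Hoxc5 relative to Hoxa5 and Hoxb5 in both transgenic embryos, by 0.18 to 0.45 on the log2 scale. The 3 ratios of Hoxc4 to its paralogues overlapped between the genotypes.

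**Figure D4:**
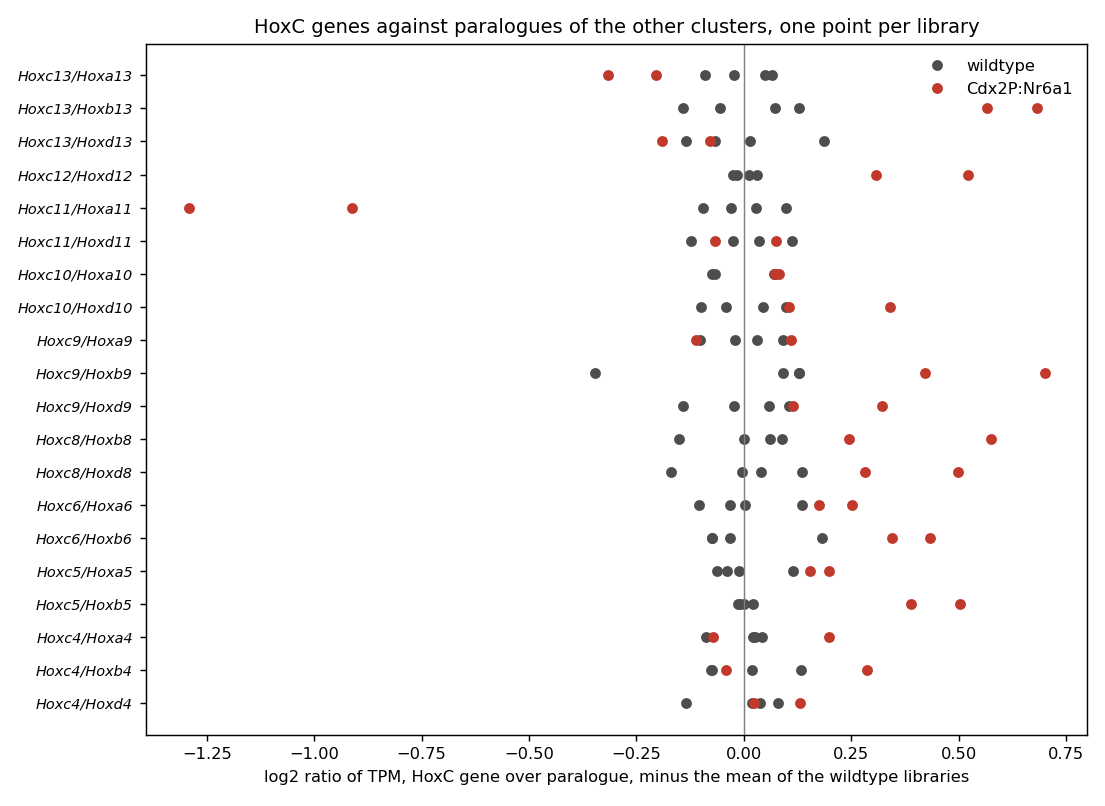
Log2 ratio of TPM of a HoxC gene over a paralogue (20 pairs on the y axis), shown for each library as the difference from the mean of the wildtype libraries (x axis), with wildtype in grey and Cdx2P:Nr6a1 in red. Red points lie right of all grey points in 12 pairs and left of them in 2, Hoxc13/Hoxa13 and Hoxc11/Hoxa11.

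Genes around the cluster were counted for comparison with its members. Of the 5 nearest tested genes on each side, 1 of 10 was called higher and none lower. With both sides pooled, their log2 fold changes ran from -0.11 to 0.70, with a median of 0.04. The median was 0.24 over the 10 members and 0.30 over the 6 genes from Hoxc10 to Hoxc4, which lay within that range. The gene called was Smug1, which encodes a uracil-DNA glycosylase and lies beyond the Hoxc4 end. It rose from 77.2 ± 5.30 CPM (SD, n = 4) to 105 ± 9.06 CPM (SD, n = 2; log2 0.43, adjusted p = 0.0208, edgeR). Within the cluster, the small RNA genes Gm28011 and Gm27535 between Hotair and Hoxc11 were tested, and neither was called by edgeR or DESeq2 or had an unadjusted p under 0.05.

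Hox proteins bind DNA together with TALE homeodomain cofactors of the Pbx, Meis and Pknox families. Of 9 such cofactors tested, 1 was called, Pknox2, which rose from 20.7 ± 2.68 to 31.7 ± 3.70 CPM (log2 0.61, adjusted p = 0.0442, edgeR). None of 10 Polycomb and trithorax genes, which maintain silent and active Hox states, was called by edgeR or DESeq2, and 0 had an unadjusted p under 0.05.

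Of 12 tested regulators of trunk and tail Hox expression, 3 were called higher and 1 lower, against 0.785% and 0.809% of all genes tested. Among the 3 was Nr6a1, which the transgene carries. Besides Nr6a1 these were Cdx2, a caudal homeobox factor (295 ± 6.96 to 378 ± 44.9 CPM, log2 0.35, adjusted p = 0.0340, edgeR), and Lin28a, an RNA-binding protein of early development (175 ± 13.8 to 312 ± 15.7 CPM, log2 0.82). Cdx1 fell from 10.3 ± 0.953 to 6.80 ± 0.0870 CPM (log2 -0.60, adjusted p = 0.0313, edgeR). The transgene itself uses the Cdx2P promoter. Gdf11, a signal that promotes the trunk-to-tail transition, was not called (399 ± 28.6 and 371 ± 5.69 CPM, log2 -0.11).

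Cell-type markers were examined beside these values, since the make-up of the dissected tissue bears on HoxC levels. Of 9 markers of tailbud progenitors and presomitic mesoderm, edgeR called 1, Cdx2, and DESeq2 called 2. In edgeR 3 of the 9 had an unadjusted p under 0.05, and 5 had a log2 fold change above 0. Tbx6 was not called but was lower in both transgenic libraries than in every wildtype library (249 ± 16.7 and 209 ± 3.94 CPM, log2 -0.26). The summed level of the 9 was 2559 to 2868 CPM in wildtype and 2464 to 2782 CPM in transgenic libraries. These tailbud markers were thus abundant in all 6 libraries.

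Neural tube markers differed in part. Of 8 markers 4 were tested, all 4 with a log2 fold change above 0, and 2 were called higher, Sox1 and Sox3. Sox2, the most abundant of the list, overlapped between the genotypes (28.2 ± 2.58 and 31.8 ± 4.18 CPM, log2 0.17). The summed level was 37.2 to 45.1 CPM in wildtype and 52.1 to 70.8 CPM in transgenic libraries, while Olig2 was at 0 in every library. Surface ectoderm markers summed to 173 to 221 CPM against 235 to 254 CPM, with 1 of 6 called (Krt18). Their part in the HoxC differences was not tested.

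Of 6 hindgut markers 5 were tested and none was called by edgeR or DESeq2, with 1 at an unadjusted p under 0.05 (summed level 190 to 257 CPM against 251 to 291 CPM). Of 6 markers of hindlimb and lateral plate mesoderm, tissues in which 5′ HoxC genes are also active, 1 passed the filter. The list summed to 2.99 to 4.46 CPM in wildtype and 2.22 to 7.49 CPM in transgenic libraries. Under the filter, Tbx4 and Prrx1 had both transgenic libraries above all wildtype libraries and Fgf10 had both below. Each stayed at 1.68 CPM or less in every library. No somite, endothelial, erythroid, macrophage or notochord marker was called by edgeR or DESeq2, and 1 somite and 1 macrophage marker had an unadjusted p under 0.05. Macrophage markers summed to 9.81 to 19.7 CPM in wildtype and 12.5 to 42.8 CPM in transgenic libraries. The log2 fold changes of the 4 tested ran from -0.42 to 2.59, with 2 above 0.

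The genes whose pattern over the 6 libraries was most like that of Hoxc13, by Pearson's r of log2(CPM + 1), were Lmo2 (0.998), Clmn (0.995), Chst7 (0.995), Slc6a8 (0.993) and Gpr50 (0.993). Those most like Hoxc8 were Pgm3 (0.993), Gsto1 (0.992), Amph (0.988), Lemd1 (0.988) and Cdhr1 (0.985). Among members, the closest to Hoxc8 was Hoxc6 (0.959), and the member most opposed to Hoxc13 was Hoxc10 (-0.990). The points share 2 genotypes and 6 library totals, so these values describe the libraries and carry no test.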

How the data were processed

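RNA-seq was performed on tailbuds of 6 mouse embryos (75 bp single-end reads, stranded mRNA kit, 50 ng RNA per library). The authors used STAR for alignment to mm10 (GRCm38) and deposited raw read counts for each gene, and the counting program and its use of strand are not given in the sources used here. A second deposited table with the authors' own edgeR comparison was not used. Groups follow the labelled genotype, no library was left out, and the replicate numbers are names. The members and gene lists were chosen with earlier results of these data known.

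Counts were fitted in R 4.3.3 with edgeR 4.0.16 (TMM, quasi-likelihood test, no covariates) over the 12733 genes with more than 10 counts and more than 2 CPM in 2 or more libraries. Calls were made at an adjusted p under 0.05 (Benjamini-Hochberg), and intervals are at 95%. The biological coefficient of variation was 9.40%. TPM used the deposited exon lengths. Exact permutation tests ran over 15 arrangements. Alternatives were the likelihood ratio test, DESeq2 1.42.0, voom of limma 3.58.1, robust estimation, other scalings and filters, a replicate block, a Y-linked covariate, and each library left out. Named genes were the 10 members, Nr6a1, paralogues in the pairs described, genes called in the lists, and the 5 genes most correlated with Hoxc13 and Hoxc8. Gdf11, Olig2, Sox2, Tbx6, Tbx4, Prrx1, Fgf10, Hoxb8, Hoxd8, Gm28011, Gm27535 and Gm29455 were named after their values were seen. MicroRNA sequences came from RefSeq (GRCm38), and homeoboxes and seed matches from GENCODE M21 transcripts, in which each homeobox was placed by its conserved tryptophan and asparagine. Sequences were compared in Python 3.11.15.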

Additional observations from a re-analysis of the deposited data

Results flagged for a closer look

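In wildtype, the highest CPM of Hoxc5 and of Hoxc4 stood apart from the other 3 libraries, by 0.840 and 0.886 of the group's whole range, beyond Dixon's critical value at the 95% level for 4 samples. Both highest values belonged to wildtype replicate 2, which was the highest of the wildtype libraries for 6 of the 10 members. Such a test marks about 1 in 20 groups by chance, and 11 groups were examined. For Hoxc4, this library accounts for the overlap between the genotypes.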

How the results depend on the processing

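Hoxc13 was called lower, as the 1 member called in that direction, under all 16 settings tried, and every member except Hoxc11 kept the direction of its fold change. Hoxc11 turned to -0.0022 with the replicate block and to -0.061 without Cdx2P:Nr6a1 replicate 1, and lay between -0.061 and 0.093 with a library left out. The number of members called higher was 5 with the likelihood ratio test and with DESeq2, 6 without a filter, 4 with the replicate block and 1 with the Y-linked covariate, and between 0 and 2 with a library left out. The number of all genes called was 401 with the likelihood ratio test, 477 with DESeq2, 876 without a filter and 442 with the replicate block, and between 61 and 175 with a library left out. With a transgenic library left out, the lone remaining one was assumed to vary like the wildtype group. The cause of these differences was not tested, except that fewer libraries entered the last fits. The genotypes share 2 replicate numbers, whose deviations from the group means correlated at 0.19 and -0.14, so the numbers do not pair the embryos and the block is only a variant. Unique exon bases moved the wildtype TPM of Hoxc10 to 492 and of Hoxc11 to 172. Depth did not limit the members, which had at least 1208 counts in each library, whereas 2 transgenic embryos limit the precision of every difference.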
